A study of Mus musculus with 2 samples.

Results

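The immunoglobulin heavy chain locus, taken as an interval of 2.85 Mb on mouse chromosome 12 (mm10), was examined in DNase-seq of spleen, in which the nuclease DNase I cuts accessible DNA in nuclei and clusters of cuts are called as peaks. Spleen came from female B6CASTF1/J mice aged 36 days, the first-generation hybrid of C57BL/6 and CAST, with no treatment named, and the 2 libraries, replicates 1 and 2, form 1 group. The labels describe 2 numbered females but attach 1 donor entry to both, so the spread between libraries may be technical, and with 1 group no test between conditions exists. Cuts on the C57BL/6 and CAST copies of the locus were not separated. The members were taken by position: the 8 constant genes Ighm, Ighd, Ighg3, Ighg1, Ighg2b, Ighg2c, Ighe and Igha, the joining (J), diversity (D) and variable (V) segments, and the noncoding DNA 3′ of Igha. The interval also runs 39.91 kb past the last V segment, into the start of Zfp386, which is no heavy chain gene. The locus was chosen by peak and footprint counts of these same libraries, so its counts are descriptions and were not tested. It held 44 of 42454 peaks in replicate 1 and 110 of 60683 in replicate 2, or 77.0 ± 46.7 (SD, n = 2), of which 2 and 3 lay in that flank.

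A heavy chain gene is assembled in developing B cells by joining 1 V, 1 D and 1 J segment, each cut by the RAG recombinase beside a recombination signal made of a heptamer, a spacer and a nonamer. Transcription then runs from the V promoter through the intronic enhancer, which lies between the J segments and Ighm, into the constant genes. Ighm and Ighd are read from 1 long primary transcript in naive B cells, and the others come into use after class switching. The 3′ regulatory region downstream of Igha is a second enhancer cluster, needed for switching and for high expression, with an array of binding sites for CTCF, a protein that anchors chromatin loops. All heavy chain segments described here lie on the minus strand, so that transcription runs toward lower coordinates. A spleen is mostly B cells beside T cells, erythroid cells and macrophages, and the share of cells with open DNA cannot be told apart from the degree of opening per cell.

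Promoters of the 7 B cell marker genes all had a peak in both libraries. The background was 55.1% of protein-coding genes in replicate 1 and 58.7% in replicate 2. T cell markers had 3 and 5 of 6, erythroid markers 2 and 4 of 4, plasma cell markers 4 of 6 in both, macrophage markers 2 of 4 in both and hepatocyte markers 0 of 4 in both. Of 16 genes for regulators of the locus, 13 had a promoter peak in each library, and the 3 without were Rag1, Rag2 and Dntt, which encode the recombinase and the polymerase that adds bases at the joins. Replicate 2 had more T cell and erythroid promoters open, 1.43 times as many peaks and 1.84 times as many footprints as replicate 1, and the part of these differences in the results below was not tested.

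The intronic enhancer had a peak in both libraries, at chr12:113427381-113427640. Its authors' signal, a value on a scale that the sources used here do not give, was 2.81 in replicate 1 and 5.30 in replicate 2. These values ranked above 72.9% and 86.8% of each library's peaks. The sequence, from the C57BL/6 reference, is printed 5′ to 3′ on the minus strand because it holds several known elements of the enhancer, and its capitals mark bases in footprints (short protected stretches, called by the authors) of replicate 2.
Intronic enhancer peak: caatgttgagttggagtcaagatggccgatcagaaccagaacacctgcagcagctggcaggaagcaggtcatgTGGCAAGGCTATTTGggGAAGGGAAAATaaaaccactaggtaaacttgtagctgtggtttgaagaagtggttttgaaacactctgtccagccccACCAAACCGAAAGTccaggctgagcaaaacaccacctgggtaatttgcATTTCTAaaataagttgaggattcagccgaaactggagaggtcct
Counted from the first base printed, it held a YY1 consensus (AANATGGC) at 19, E boxes (CAGGTG or its complement) at 42 and 200, an E box CAGCTG at 51, a RUNX consensus (TGTGGT or its complement) at 126 and an octamer (ATGCAAAT or its complement) at 210. Replicate 1 had 0 footprints here and replicate 2 had 4. YY1, E proteins, RUNX and the octamer factors are known to bind this enhancer, and a match of letters is not a measured site.

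Around that peak, replicate 2 differed from replicate 1 over a long stretch. Its peaks followed each other with gaps under 2 kb from chr12:113403012 to chr12:113431804, which is 28.8 kb from beyond the 3′ end of Ighd to just past Ighj1. In that block replicate 1 had 2 peaks and replicate 2 had 46. In the longer, less stringent lists the counts were 3 and 50. Footprints in the block numbered 1 in replicate 1 and 142 in replicate 2, and 0 were shared. The block was bounded after its values were seen.

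The authors' cut rate track, which lists runs of bases with a false discovery rate (FDR) below 0.05, showed the same block apart from the peak calls, although both derive from the same alignments. Listed runs covered 1.71% of its bases in replicate 1 and 77.2% in replicate 2, and 0.39% and 0% of the 10 kb beyond its ends in replicate 2. Coverage in replicate 2 was 100% of the body of Ighm, 64.1% of Ighd, 91.0% of the stretch between these genes, 87.8% from the Ighm start to Ighj4 and 82.4% of the J cluster, and it fell to 31.6% beyond Ighj1. In replicate 1 it was 7.57% between the Ighm start and Ighj4, where the enhancer lies, 1.5% on the 3′ side of Ighd, and 0% in the other parts. Exons and introns of Ighm were both covered to 100% in replicate 2, whereas in Ighd exons were covered to 94.8% and introns to 56.7%.

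**Figure D1:**
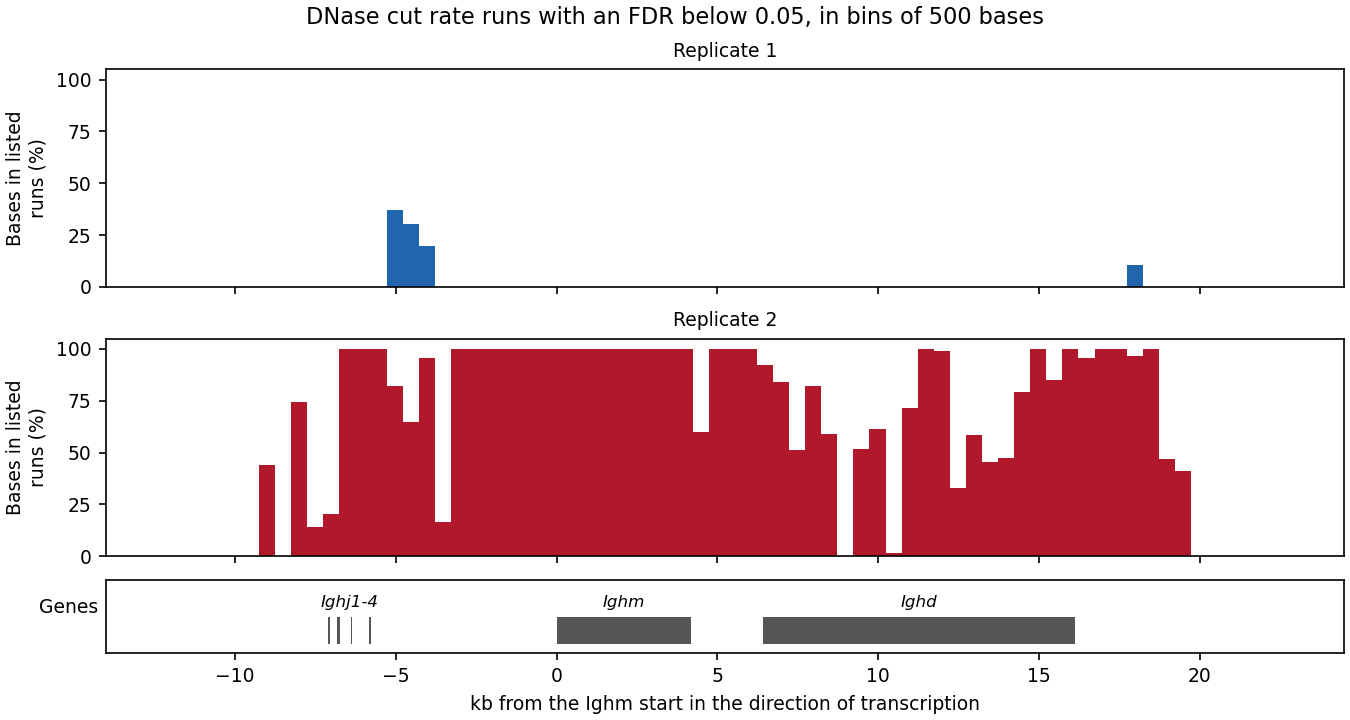
Percent of bases in listed cut rate runs, in bins of 500 bases, against distance in kb from the Ighm start in the direction of transcription, with gene bodies as boxes below. Replicate 1 shows bars near the intronic enhancer and 1 beyond Ighd, whereas in replicate 2 every bin centred from -3.02 to 3.98 kb is at 100%, and bins in the J cluster, beside the enhancer and in Ighd vary between 0% and 100%.

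Among tiles of 30 kb across the genome, the tile that holds Ighm ranked first of 24879 tiles with a peak in replicate 2, with 44 peaks against 23 in the next. In replicate 1 it held 2 peaks and ranked 5434th of 20689. By listed bases the tile was first in replicate 2, with 72.0% against 45.2% in the next tile, and 13335th of 29464 in replicate 1, with 1.64%. It was the only tile of replicate 2 above 50%, and replicate 1 had 0. The tile that holds the start of Igkc, the kappa light chain constant gene, had 3.48% and 6.22% of its bases listed.

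The peaks of the block were weak but wide. Their median signal in replicate 2 was 0.366, against 1.14 over all its peaks, and 34 of the 46 lay below its 10th percentile. Their median width was 278 bases, against 191. When replicate 2 was limited to its 42454 strongest peaks, the locus held 37 of them, and the constant gene segment had 0.298 peaks per 10 kb in both libraries. The difference in listed bases does not depend on that choice. With 1 library on each side, the animal and the library cannot be told apart, and the cause was not tested. The reads were not analysed here, so whether the signal of the block in replicate 2 came from accessible chromatin at all was not tested, and its peaks, footprints and coverage are given as the authors' calls.

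Ighm, at chr12:113418558-113422730, encodes the constant part of IgM. It had 0 peaks in its body in replicate 1 and 10 in replicate 2, with 0 and 26 footprints, and the lowest listed FDR in replicate 2 was 1.45e-24. Ighd, at chr12:113406604-113416324, encodes that of IgD and had 0 and 14 body peaks, with 0 and 39 footprints and a lowest FDR of 5.5e-14 in replicate 2. No run was listed in either gene body in replicate 1.

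The genes used after switching stood apart from Ighm and Ighd in replicate 2. Ighg3, Ighg1, Ighg2b and Ighg2c, which encode IgG subclasses, and Ighe, which encodes IgE, had 0 peaks and 0% of their bodies in listed runs in both libraries. Igha, which encodes IgA, had 1 body peak in each library, at chr12:113257361-113257560 in an intron, with signals of 2.56 and 2.97. Constant genes with a body peak were thus Igha alone in replicate 1 and Igha, Ighm and Ighd in replicate 2. Between the genes, 3 weaker peaks occurred in both libraries, at chr12:113314701-113314980, chr12:113321161-113321440 and chr12:113366501-113366720. The last lay 5378 bases upstream of Ighg3, with signals of 0.939 and 1.46.

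The DNA 3′ of Igha had the highest peak density outside the block. Its 54.83 kb held 11 peaks in replicate 1 and 14 in replicate 2, or 2.28 ± 0.387 per 10 kb (SD, n = 2), against 0.161 and 0.23 per 10 kb in the whole genome. All 11 of replicate 1 had a counterpart in replicate 2. The background was 93.8% of replicate 1 peaks shared, by an overlap of at least 1 base, and 65.7% of replicate 2 peaks. The median signal percentile was 71.8 in replicate 1 and 77.6 in replicate 2.

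**Figure D2:**
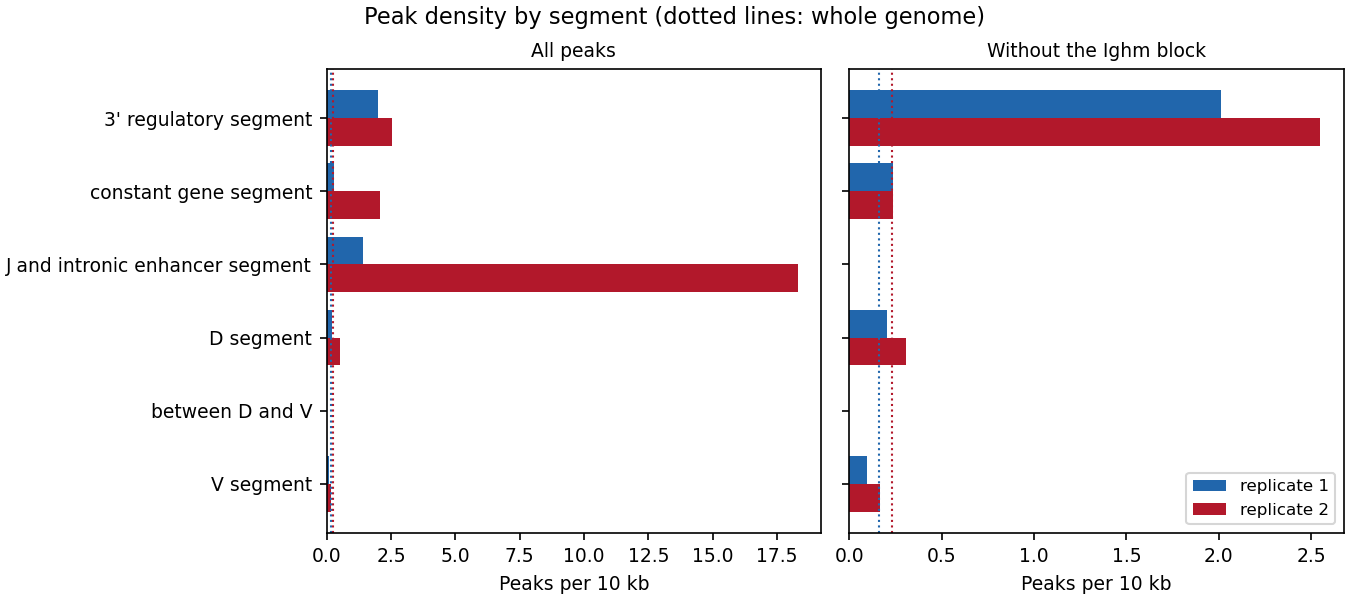
Peaks per 10 kb in each segment, for replicate 1 in blue and replicate 2 in red, with all peaks at left and without the block around Ighm at right, on separate scales. Dotted lines give the whole-genome densities of 0.161 and 0.23, and the 3′ regulatory segment exceeds them in both libraries and both panels.

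The strongest of these peaks lay at chr12:113222121-113222320, 32610 bases from the 3′ end of Igha, with signals of 7.06 and 8.51 at the 91.3 and 92.6 percentiles. The second by mean percentile, at chr12:113228261-113228520, had signals of 4.03 and 7.40. Both are printed on the minus strand, with capitals for bases in footprints of both libraries. They were chosen because they rank highest in the segment by mean percentile and differ in their known motifs.
Strongest 3′ peak: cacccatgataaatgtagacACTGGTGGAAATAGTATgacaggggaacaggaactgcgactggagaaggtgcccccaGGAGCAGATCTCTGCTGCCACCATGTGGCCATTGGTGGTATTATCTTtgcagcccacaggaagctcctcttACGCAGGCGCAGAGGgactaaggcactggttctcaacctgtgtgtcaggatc
Second 3′ peak: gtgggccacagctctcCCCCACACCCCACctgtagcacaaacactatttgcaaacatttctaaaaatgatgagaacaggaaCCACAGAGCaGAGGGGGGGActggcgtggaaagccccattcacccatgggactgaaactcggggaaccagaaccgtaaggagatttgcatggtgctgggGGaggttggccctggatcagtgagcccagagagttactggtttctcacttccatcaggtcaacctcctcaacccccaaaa
The strongest held none of the 14 consensus sequences searched, while its footprints covered 79 of its 200 bases in both libraries. The second held an octamer at base 164, an E box CAGGTG at 27 and a RUNX consensus at 81, and the shared footprints covered 34 of its 260 bases. The octamer lay outside the capitals. A further peak with an octamer, at chr12:113244721-113245060, lay 9940 bases from Igha and had signals of 1.93 and 3.17. The 3 peaks found in replicate 2 alone, the nearest 840 bases from Igha, had signals between 0.80 and 1.72.

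Regions with a peak in both libraries numbered 38 over the locus. Of these, 24 had the higher signal in replicate 2 and 14 in replicate 1. In the 3′ regulatory segment 8 of 11 were higher in replicate 2, and in the V segment 8 of 18. Signals between libraries were not normalised here, so this order describes the deposited values alone.

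**Figure D3:**
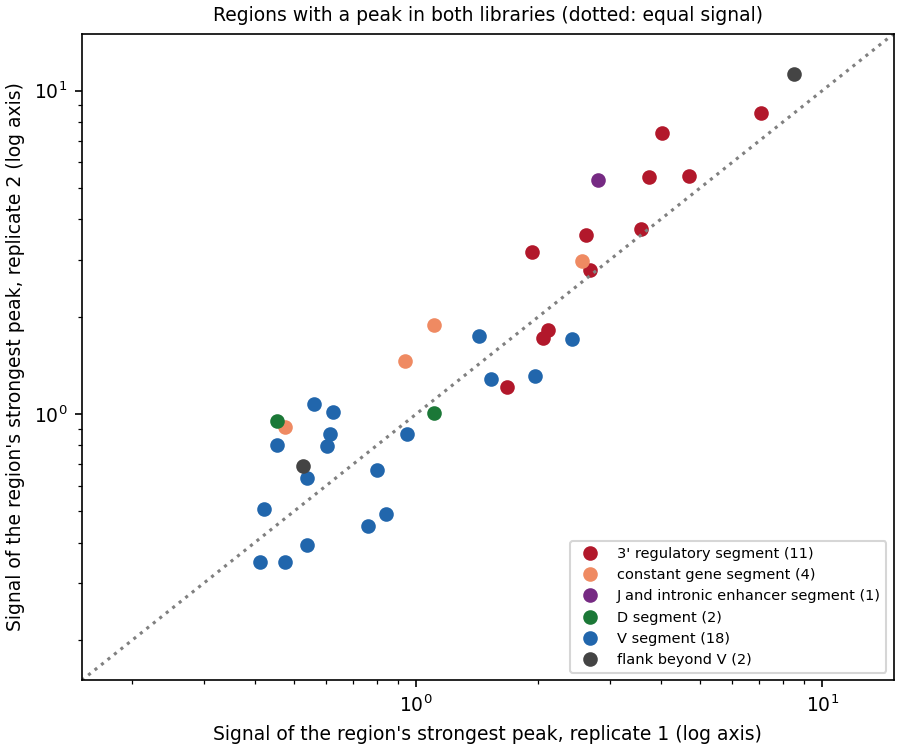
Authors' signal of the 38 regions with a peak in both libraries, replicate 1 against replicate 2, on log axes, with a point per region coloured by segment and a dotted line of equal signal. The 3′ regulatory regions lie between 1.22 and 8.51, above most V segment regions, which lie between 0.348 and 2.42.

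Away from the block, 37 of 42 peaks of replicate 1 (88.1%) and 37 of 64 of replicate 2 (57.8%) were shared, with 95% Wilson intervals of 75.0 to 94.8% and 45.6 to 69.1%, which cover counting error only. With the block the shares were 86.4% and 34.5%. The background over all peaks was 93.8% and 65.7%, which the intervals outside the block include. Of footprints outside the block, 62.4% and 26.5% overlapped a footprint of the other library by at least 50% of the shorter, with backgrounds of 63.7% and 32.6%.

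The D segment held few and weak peaks. There were 2 in replicate 1 and 5 in replicate 2, or 0.356 ± 0.216 per 10 kb (SD, n = 2), and 2 of the 5 lay in the block. Outside the block the densities were 0.204 and 0.305 per 10 kb, slightly above the whole-genome 0.161 and 0.23. The strongest by mean percentile, at chr12:113487781-113487959, lay 5678 bases upstream of Ighd1-1, the side from which V segments are joined, with signals of 1.11 and 1.01. It is printed on the minus strand, with capitals for footprints of both libraries, because it is the strongest peak of the D segment.
D segment peak: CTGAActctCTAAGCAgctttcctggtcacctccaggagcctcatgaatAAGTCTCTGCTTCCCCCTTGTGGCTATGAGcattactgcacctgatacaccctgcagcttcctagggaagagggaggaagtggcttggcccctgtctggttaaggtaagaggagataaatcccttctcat
It held an E box CAGGTG at base 88 and a PU.1 consensus (GAGGAAGT) at 123. Within its capitals lay CCCCCTTGTGG, which matches the complement of the core of the CTCF consensus, CCANNAGNN followed by GG. The peak lacked the whole consensus searched, CCANNAGNN followed by GGCA. The core was looked for after sequences had been seen, and binding of CTCF was not tested. Of 22 D segments, 0 in replicate 1 and 1 in replicate 2 had a peak within 500 bases, and 0 of 22 allows a share of up to 13.6%. That D segment was Ighd4-1, which lies in the block. All 4 J segments had a peak within 500 bases in replicate 2, also within the block, and 0 had one in replicate 1. The 44.87 kb between the annotated D and V segments had 0 peaks, 0 footprints and 0% of bases in listed runs in both libraries. At the whole-genome densities of 0.161 and 0.23 peaks per 10 kb, few peaks fall in such a length. The 0 peaks are thus close to background and do not show that this DNA is closed.

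The V segment spans 2437 kb with 113 V genes and 81 V pseudogenes. It held 23 peaks in replicate 1 and 40 in replicate 2, or 0.129 ± 0.0493 per 10 kb (SD, n = 2), below the whole-genome densities. Of V genes, 8 (7.08%, Wilson 3.63 to 13.4%) in replicate 1 and 21 (18.6%, 12.5 to 26.7%) in replicate 2 had a peak in the gene or within 500 bases. Of pseudogenes, 2 (2.47%) and 7 (8.64%) had one. The background, tiles of 1500 bases across the genome, was 2.27% and 3.19%. With the same windows, 14.7% and 36.3% of kappa V genes, 13.6% and 27.3% of Trb V genes and 3.48% and 9.57% of Tra and Trd V genes had a peak, values that were not tested against those of the heavy chain.

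**Figure D4:**
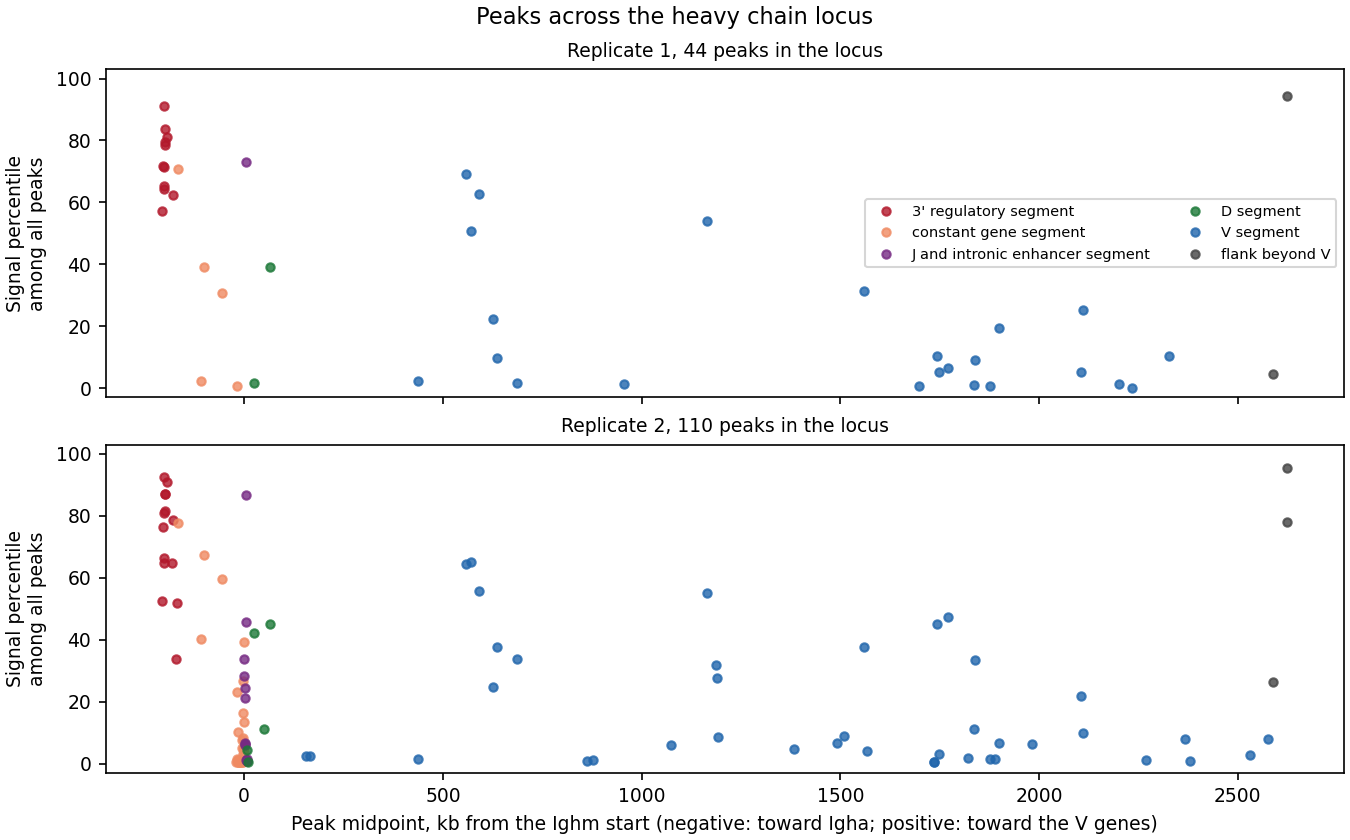
Peaks of each library by midpoint in kb from the Ighm start and by signal percentile among all peaks of that library, coloured by segment. Strong peaks crowd in the 3′ regulatory segment in both libraries, the column of weak peaks at 0 kb is in replicate 2, and V segment peaks are scattered and mostly weak, with a stronger group between 559.6 and 590.9 kb.

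Windows of V genes and pseudogenes, 11.4% of the bases of the V segment, held 10 of 23 of its peaks (43.5%) in replicate 1. In replicate 2 they held 28 of 40 (70.0%), and the other peaks lay farther away. Within these windows accessible DNA lay at the 3′ end, where the recombination signal is, and hardly at the promoter. Farther out, about 1250 bases upstream of the 3′ end, 6.19% of V genes had a listed run in both libraries. In equal windows of 250 bases, a listed run occurred upstream of the start in 1 of 113 V genes (0.885%, Wilson 0.156 to 4.84%) in each library. The first 250 bases of the gene had one in 2 and 5 genes, the last 250 bases in 20 (17.7%) and 35 (31.0%), and the 250 bases beyond the 3′ end in 22 (19.5%) and 37 (32.7%). All 10 peaks of replicate 1 in V windows and 27 of 28 of replicate 2 had their midpoint within 150 bases of a 3′ end. Medians were 61.5 and 12.5 bases beyond it.

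**Figure D5:**
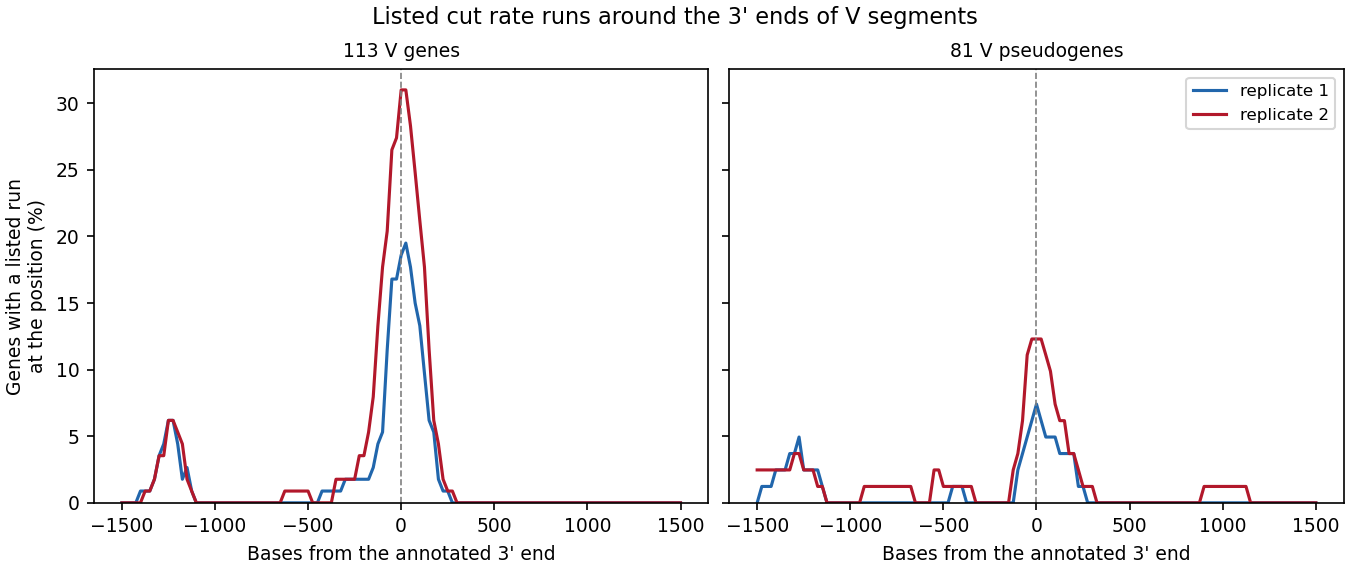
Percent of V genes (left) and V pseudogenes (right) with a listed cut rate run at each position, against distance in bases from the annotated 3′ end, for replicate 1 in blue and replicate 2 in red. Both libraries peak within 25 bases of the 3′ end, at 19.5% and 31.0% of V genes, with a second low rise about 1250 bases upstream.

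T cell receptor V genes had too few peaks to tell their layout apart from that of the heavy chain, whereas kappa V genes showed another layout. By peak midpoints, 10 of 102 (9.8%, Wilson 5.4 to 17.1%) in replicate 1 and 20 of 102 (19.6%) in replicate 2 had a peak in the 250 bases upstream of the start, against 0 of 113 heavy chain V genes in both libraries, which allows a share of up to 2.65%. Downstream of the 3′ end, 5 (4.9%) and 20 (19.6%) of kappa V genes had one, against 6 (5.31%) and 12 (10.6%) of heavy chain V genes. Tra and Trd V genes had 3 and 8 of 115 with an upstream peak and 0 and 3 with a downstream peak. Trb V genes had 1 and 3 of 22 upstream and 0 in both libraries downstream. In the longer lists Trb counts were 2 and 3 upstream and 1 and 4 downstream. Differences in layout were not tested, since V genes of a locus are not independent replicates. An octamer in the 250 bases upstream, a known element of V promoters, was present in 90 of 113 heavy chain V genes. Of these 7 and 17 had a window peak, against 1 and 4 of the 23 without, so the shares of 7.78% and 4.35% in replicate 1 and of 18.9% and 17.4% in replicate 2 had overlapping intervals.

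The 10 V segments with a window peak in both libraries were Ighv11-1, Ighv4-2, Ighv14-2, Ighv8-6, Ighv1-54, Ighv14-3, Ighv11-2, Ighv9-2, Ighv8-7 and Ighv5-17, of which Ighv4-2 and Ighv8-7 are pseudogenes. The strongest, Ighv11-1, Ighv4-2 and Ighv14-2, lay between 559.6 and 590.9 kb from the Ighm start. Ighv11-1 had signals of 2.42 and 1.70, Ighv4-2 of 1.96 and 1.31, and Ighv14-2 of 1.42 and 1.75. The other 7 had signals between 0.348 and 1.07. Both members of the V11 family, named here after its values were seen, had a peak in both libraries. Of the 92 V1 segments, the family with most members, 1 had a window peak in replicate 1 and 14 in replicate 2.

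The ends of these segments are printed because the peaks sit on them, from the last 20 bases of the segment to 50 bases beyond it, with the heptamer CACAGTG and the nonamer in capitals.
Ighv14-2 with a peak in both, chr12:113994419-113994488: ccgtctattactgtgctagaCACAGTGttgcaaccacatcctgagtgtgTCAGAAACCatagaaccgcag
Ighv9-2 with a peak in both, chr12:114108951-114109020: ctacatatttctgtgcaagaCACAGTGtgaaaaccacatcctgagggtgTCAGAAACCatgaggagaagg
Ighv1-54 with a peak in both, chr12:115193625-115193694: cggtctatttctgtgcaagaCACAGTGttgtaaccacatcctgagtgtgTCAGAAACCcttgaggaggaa
Ighv5-17 with a peak in both, chr12:113859099-113859168: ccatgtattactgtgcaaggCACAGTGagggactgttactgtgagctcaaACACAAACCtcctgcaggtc
Ighv11-1 with a peak in both, chr12:113981829-113981898: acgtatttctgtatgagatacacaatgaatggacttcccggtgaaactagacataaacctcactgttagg
Ighv9-3 without a listed run, chr12:114140642-114140711: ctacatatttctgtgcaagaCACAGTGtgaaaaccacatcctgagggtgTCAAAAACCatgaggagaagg
Ighv1-50 without a listed run, chr12:115119698-115119767: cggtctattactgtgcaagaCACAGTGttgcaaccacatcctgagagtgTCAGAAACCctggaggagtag
Ighv3-1 without a listed run, chr12:113964338-113964407: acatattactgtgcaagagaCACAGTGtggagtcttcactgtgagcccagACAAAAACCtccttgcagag
The nonamers were taken where they had at most 3 mismatches to ACAAAAACC, 22 to 24 bases after the heptamer. Ighv3-1 had 0 mismatches and no listed run in either library. Ighv11-1 had the strongest peak and, in place of CACAGTG, the variant cacaatg, which was not searched and is not in capitals.

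A heptamer with exactly the letters CACAGTG did not separate accessible ends from the rest. Ends with a variant of it, such as cacaatg at Ighv11-1, were counted as without. Presence and absence of a recombination signal were therefore not compared. A listed run lay within 150 bases of the 3′ end in 16 of 82 V genes with the heptamer (19.5%) and 7 of 31 without (22.6%) in replicate 1, and in 27 of 82 (32.9%) and 10 of 31 (32.3%) in replicate 2. Among V segment peaks, 10 of 23 (43.5%) and 22 of 40 (55.0%) held CACAGTG or its complement in their 200 central bases. The background was 5.4% and 6.16% of all peaks. In V windows 6 of 10 and 20 of 28 peaks held it, as the position at V ends implies. Outside V windows 4 of 13 and 2 of 12 did. In 44 V genes the heptamer was followed after 5 bases by ACCACA, the complement of the RUNX consensus, as in Ighv14-2, Ighv9-2 and Ighv1-54, so that the match lies in the spacer of the recombination signal. That arrangement was looked for after these sequences had been seen. A listed run lay at 11 of the 44 (25%, Wilson 14.6 to 39.4%) in replicate 1 and 23 (52.3%, 37.9 to 66.2%) in replicate 2, against 12 (17.4%, 10.2 to 28.0%) and 14 (20.3%, 12.5 to 31.2%) of the other 69. Intervals overlapped in replicate 1 and not in replicate 2, and V genes with the arrangement are related in sequence. Ighv9-3 and Ighv1-50 have it as well and had no listed run.

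The peaks at Ighv11-1 and Ighv4-2 extended over DNA just beyond the recombination signal, where a stretch close to the CTCF consensus lay in footprints of both libraries. Both peaks are printed on the minus strand for that reason, with capitals for these footprints.
Ighv11-1 peak at chr12:113981721-113981900: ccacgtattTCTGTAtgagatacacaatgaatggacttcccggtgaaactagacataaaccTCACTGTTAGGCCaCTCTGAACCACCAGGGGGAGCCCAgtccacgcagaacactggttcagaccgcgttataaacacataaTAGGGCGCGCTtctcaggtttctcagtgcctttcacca
Ighv4-2 peak at chr12:114012981-114013160: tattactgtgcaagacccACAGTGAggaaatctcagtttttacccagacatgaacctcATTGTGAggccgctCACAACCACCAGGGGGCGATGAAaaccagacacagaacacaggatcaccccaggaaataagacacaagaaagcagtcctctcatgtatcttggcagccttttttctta
Each holds CCACCAGGGGG within capitals, which matches the core of the CTCF consensus, CCANNAGNN followed by GG, but not the whole consensus searched, CCANNAGNN followed by GGCA. The core was searched after these sequences had been seen. It occurred in the 200 central bases of 4 of 10 V window peaks in replicate 1 and 7 of 28 in replicate 2, and of 10 of 13 and 7 of 12 V segment peaks outside V windows. The background was 19.9% and 16.0% of all peaks.

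V segment peaks away from V ends held the full CTCF consensus in 6 of 13 in replicate 1 and 4 of 12 in replicate 2, against 0 of 10 and 1 of 28 in V windows. The background was 7.37% and 5.59% of all peaks. Over the whole locus the shares were 22.7% and 8.18%, and outside the block 23.8% and 14.1%. Outside the block, 12 regions held 12 matches. All 8 in the V segment, that in Igha and that beyond the V segment had the consensus on the minus strand, and the 2 in the 3′ regulatory segment had it on the plus strand, so the matches in V and 3′ DNA pointed toward each other. Sites of both directions are printed so that they can be compared, with the consensus in capitals, read along the strand of the match, and 10 bases on either side.
3′ regulatory site 1, chr12:113220053-113220065, plus strand: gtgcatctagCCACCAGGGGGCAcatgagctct
3′ regulatory site 2, chr12:113221408-113221420, plus strand: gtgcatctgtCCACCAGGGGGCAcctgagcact
Igha intron site, chr12:113257463-113257475, minus strand: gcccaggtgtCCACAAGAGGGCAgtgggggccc
Ighv1-9 side site, chr12:114587433-114587445, minus strand: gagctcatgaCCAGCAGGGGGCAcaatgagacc
Ighv1-58 side site, chr12:115320836-115320848, minus strand: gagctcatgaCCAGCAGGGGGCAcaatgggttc
Ighv1-65 side site, chr12:115533313-115533325, minus strand: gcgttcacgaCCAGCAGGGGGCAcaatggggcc
Ighv1-50 side site, chr12:115121473-115121485, minus strand: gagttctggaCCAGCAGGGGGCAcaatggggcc
In the first 6 of these a footprint of both libraries overlapped the consensus. The last, 1254 bases upstream of Ighv1-50, had a peak in replicate 1 alone and no footprint over the consensus. Its 33 printed bases occurred 8 times in the locus, 2 of them in other regions with a peak in 1 library only, near Ighv1-53 and Ighv1-69. The region near Ighv1-69 also had a peak in the longer list of replicate 2. Reads at such copies may not be placed uniquely. The sources used here do not say how the authors treated such reads, and repeated sequence can remove or misplace cuts throughout the V segment.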

How the data were processed

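DNase-seq of spleen was analysed from deposited files on mm10, per the labels. Per the file headers of the deposited readmes, peaks, cut rates and footprints were made per library, without pooling. The sources used here name no aligner and no caller. The authors' signal values describe and rank peaks within a library. The depth in reads is unknown. The deposited p-value column of the cut rate track holds an FDR, listed only below 0.05, and that of the footprints is a constant threshold of 0.01. The shorter of the 2 peak lists per library was used throughout.

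Peaks were placed by midpoint into segments bounded by GENCODE vM21 genes. Shared peaks overlapped by at least 1 base, and shared footprints by at least 50% of the shorter. For shares of peaks, motifs were searched on both strands in 200 bases around midpoints. For named or printed peaks and for the CTCF matches with their strands, the whole region was searched. Sequence came from RefSeq's copy of GRCm38. The members, lists and consensus sequences were chosen with earlier results of these data known. The genes and peaks named were the 8 constant genes, up to 3 peaks per segment by mean signal percentile, and V, D or J segments with a window peak in both libraries, at most 10. Others were chosen after their values were seen. Shares have 95% Wilson intervals, which cover counting error only, and a count of 0 allows up to 3. Interval and motif functions were tested on simulated data. Python 3.11.15 with pandas 2.3.3, numpy 2.4.6 and scipy 1.17.1 was used. Alternatives were the longer list, stricter and equal numbers of peaks, other windows, overlaps and consensus forms, and leaving out each library.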

Additional observations from a re-analysis of the deposited data

How the results depend on the processing

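No paired analysis was possible because the libraries form 1 group and no test was run. Of 61 recalculations other than leaving out a library, 44 moved less than the SD of the libraries or, for counts, less than 1.5 times. That SD is wide with 2 unlike libraries, so the 44 do not show stability: with the strongest peaks alone, density went from 1.19 to 0.0893 per 10 kb in the constant gene segment and from 9.85 to 1.41 in the J and intronic enhancer segment, and with equal numbers of peaks V genes with a window peak went from 12.8% to 6.19% and pseudogenes from 5.56% to 1.85%. With the longer lists, mean peaks in the locus rose from 77.0 to 122.0, peaks per 10 kb from 2.28 to 2.74 in the 3′ regulatory segment and from 0.129 to 0.281 in the V segment, and window peaks to 25.7% of V genes and 10.5% of pseudogenes. With the strongest 21227 peaks of each library these values were 16.5, 1.82, 0.0103, 1.33% and 0.617%, the D segment had 0 per 10 kb and 1 constant gene had a body peak. With equal numbers of peaks the locus held 40.5 and the V segment 0.0698 per 10 kb. Listed bases of the V segment were 0.546%, and 0.229% at an FDR of at most 0.001. The shorter CTCF consensus, which was not planned, raised the share of locus peaks from 15.5% to 32.7%. Its background was 19.9% and 16.0% of all peaks. A planned looser form, with fewer fixed letters, was in 27.3% of locus peaks against 21.6% of all peaks in replicate 1. In replicate 2 it was in 12.7% against 17.2%, with the peaks of the block included. Outside the block 12 of 42 peaks held it in replicate 1 and 13 of 64 in replicate 2. An excess in the locus thus depended on the form, the library and whether the block was counted. Without the block, chosen after seeing the data, constant genes with a body peak averaged 1.0 in place of 2.0, and the J and intronic enhancer segment had 0 peaks per 10 kb, since the enhancer peak lies in the block.

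Leaving out a library gave 44.0 to 110.0 peaks, 1.0 to 3.0 constant genes and 110.0 to 387.0 footprints in the locus. Replicate 2 alone supplied the Ighm and Ighd block. Unknown depth and 2 libraries limit every value.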

Other observations

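Beyond the last V segment, the peak at chr12:116047541-116047760 had the highest signal of the whole interval, 8.51 and 11.3. It overlaps the start of Zfp386, a zinc finger gene outside the heavy chain locus, and an adjoining peak at chr12:116047821-116048060 was found in replicate 2 alone with a signal of 3.04. By the shorter lists, the strongest region with a peak in replicate 1 alone lay at chr12:115749721-115749844. It held a CTCF consensus, had a signal of 0.623 and overlapped 1 footprint in replicate 1 and 2 in replicate 2. The longer list of replicate 2 had 1 peak there.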
